A study of Mus musculus with 3 samples.

Results

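The oncofetal Lin28, Hmga and Igf2bp genes were examined in sorted embryonic mouse mammary cells. The members were the probe sets that the platform annotation pairs with exactly 1 gene symbol out of Lin28a, Lin28b, Hmga1, Hmga2, Igf2bp1, Igf2bp2 and Igf2bp3. The rule found 14 probe sets of 45141 in the table, or of 28898 with 1 gene symbol. They measured 4 of the 7 genes: Lin28a with 2 probe sets, and Hmga2, Igf2bp1 and Igf2bp3 with 4 each. Lin28b, Hmga1 and Igf2bp2 were not analysed here.

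RNA came from 3 samples of 1 group, each hybridised to 1 Affymetrix array. Cells with high CD49f (integrin alpha 6) and high green fluorescence were sorted at embryonic day 14 from female embryos that carry Lgr5-IRES-GFP, a fluorescent reporter at the Lgr5 locus. All samples shared this allele, the labels name no treatment, and each sample pooled the female embryos of 1 litter. There was no second group, so each probe set was compared with background signal of its own arrays. The digested tissue held epidermis beside the mammary gland, and either 813 or 2000 cells were sorted per sample, without a statement of which sample had which number.

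These genes are called oncofetal because most of them are active in embryonic tissues, are largely silent in adult ones and return in many tumours. LIN28 proteins bind the precursors of let-7 microRNAs through a cold shock domain and zinc knuckles. They can recruit the terminal uridylyl transferases TUT4 and TUT7, whose tail marks the precursor for decay by DIS3L2. Mature let-7 represses HMGA2, an architectural chromatin protein that binds the minor groove of AT-rich DNA with its AT-hooks, and it also represses IGF2BP messenger RNAs. IGF2BP proteins are RNA-binding proteins with RRM and KH domains that stabilise or localise target transcripts such as those of Igf2, Myc and Actb, and they read N6-methyladenosine (m6A).

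The let-7 family is shown because it is the step between LIN28 and the other members. The arrays were not read for microRNAs here. The sequences are those of RefSeq on GRCm38.p6, with the seed (bases 2 to 8) in capitals.
let-7a-5p (Mirlet7a-1, chr13:48538239-48538260, minus strand): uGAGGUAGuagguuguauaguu
let-7b-5p (Mirlet7b, chr15:85707325-85707346, plus strand): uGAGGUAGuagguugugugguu
let-7d-5p (Mirlet7d, chr13:48536078-48536099, minus strand): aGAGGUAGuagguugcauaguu
let-7g-5p (Mirlet7g, chr9:106178846-106178867, plus strand): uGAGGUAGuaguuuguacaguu
miR-98-5p (Mir98, chrX:151913229-151913250, plus strand): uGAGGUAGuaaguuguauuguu
let-7j (Mir7j, chr3:140028281-140028304, plus strand): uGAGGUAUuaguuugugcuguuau
Of 11 mature family names in the table, 10 shared the seed GAGGUAG, and let-7j had GAGGUAU.

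The zinc knuckles of LIN28 are known to bind the letters GGAG in the loop of the precursor. Both kinds of hairpin are shown, with GGAG between the mature arms in capitals where it occurs.
Mirlet7g (chr9:106178840-106178927, plus strand): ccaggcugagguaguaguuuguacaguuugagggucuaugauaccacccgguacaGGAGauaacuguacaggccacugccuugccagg
Mirlet7b (chr15:85707319-85707403, plus strand): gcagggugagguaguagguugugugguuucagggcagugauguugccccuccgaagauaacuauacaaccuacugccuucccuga
GGAG, read on the RNA strand alone, lay between the arms in 8 of 11 let-7 family hairpins with both arms listed, and in 7 of 50 other hairpins (14%) with a loop of the same length range, 23 to 36 bases. The hairpins of let-7b, let-7c-2 and miR-98 were the 3 without it. A match is a description of letters and not evidence of binding.

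The values are log2 expression per probe set, normalized by the authors. The background threshold of an array was the 95th percentile of 78 olfactory and vomeronasal receptor genes, each by its probe set of highest mean, and lay at 6.29, 6.23 and 6.22 on replicates 1, 2 and 3. Replicate 3 stood apart in its distribution, with a median over all probe sets of 6.52 against 6.25 on each of the other arrays. The mean of a probe set minus the thresholds was tested against 0 with limma (one-sided, Benjamini-Hochberg over all 28898 probe sets), and a probe set with an adjusted p under 0.05 is called above background. Stricter thresholds were the same percentile of 44 genes restricted to unrelated tissues (7.32, 7.43 and 7.25) and the brightest antigenomic control (7.36, 7.31 and 7.48). Different probe sets bind with different strength, so no level is ranked against another.

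Of the 14 member probe sets, 10 were above background, against 46.8% of all probe sets tested. The 10 belonged to Hmga2, Igf2bp1 and Igf2bp3, and none to Lin28a. The median member lay 1.58 above the threshold on the log2 scale, and the median of all probe sets 0.37 above it. With each gene represented by its probe set of highest mean, 3 of the 4 genes were above background, against 52.5% of 17097 genes, and 3 also at the tissue-restricted (31.3% of all genes) and antigenomic (31.6%) thresholds. That rule favours genes with many probe sets. At the tissue-restricted threshold 7 of the 14 probe sets passed (25.6% of all probe sets), and at the antigenomic one 7 as well (26.3%).

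Lin28a, which encodes the cytoplasmic LIN28 paralogue, gave no signal above background. Its first probe set, 1421749_PM_at, read 4.21, 4.08 and 4.52 (log2, in the order of replicates 1, 2 and 3, as in all such triplets). The second, 1437752_PM_at, had 4.12, 4.08 and 4.46. Both probe sets lay below the threshold on every array. Their means of 4.27 ± 0.23 and 4.22 ± 0.21 (SD, n = 3) differed from the threshold by -1.98 (95% interval from -2.30 to -1.66) and -2.03 (from -2.34 to -1.72). The unadjusted and the limma adjusted p of both rounded to 1. An array value under the threshold gives only a bound, so a small amount of the transcript was not detectable here.

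Hmga2 was clearly above background with 3 of its 4 probe sets. Probe set 1450781_PM_at read 11.18, 10.65 and 11.23 on the log2 scale, a mean of 11.02 ± 0.32 (SD, n = 3). This was 4.77 above the threshold, with a 95% interval from 4.37 to 5.16 (limma adjusted p = 2.71e-05). Probe set 1450780_PM_s_at had 10.40, 9.83 and 10.95 and lay 4.14 above it (adjusted p = 0.000108). These probe sets and the next share 1 source sequence in the annotation. Probe set 1422851_PM_at had 10.02, 9.40 and 10.55 and lay 3.74 above the threshold (adjusted p = 0.00016). All 3 exceeded the tissue-restricted and antigenomic thresholds on every array. The fourth, 1446196_PM_at, was designed on another sequence and behaved differently, with 6.02, 4.99 and 5.74. It was below the threshold on all 3 arrays and was not called (difference -0.67, adjusted p = 1).

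Igf2bp1, the paralogue known as ZBP1 for its binding of the beta-actin zipcode, was above background with all 4 probe sets. Probe set 1459825_PM_x_at had 8.79, 8.74 and 8.99 on replicates 1, 2 and 3 and a mean of 8.84 ± 0.13 (SD, n = 3), 2.59 above the threshold (limma adjusted p = 9.26e-05). The letters x, s and a in a probe set name mark probes that can match more than 1 transcript. Such probe sets are called cross-hybridising here, although the letter a can mark transcripts of 1 gene. Probe set 1418761_PM_at had 8.71, 8.78 and 8.28 (2.34 above the threshold, adjusted p = 0.000182), and 1455223_PM_at had 7.93, 8.08 and 8.09 (1.78 above, adjusted p = 0.000282). The call therefore did not rest on the cross-hybridising probe set. Probe set 1449210_PM_at had 7.58, 7.41 and 7.92 and lay 1.39 above the threshold (adjusted p = 0.00116). That last call was lost at the tissue-restricted threshold (adjusted p = 0.31) and at the antigenomic one (0.23). Probe sets 1449210_PM_at and 1418761_PM_at share a source sequence in the annotation.

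Igf2bp3, the paralogue most used as a tumour marker, was above background with 3 of 4 probe sets. Probe set 1422610_PM_s_at had 9.66, 9.56 and 10.34 on replicates 1, 2 and 3 and a mean of 9.85 ± 0.42 (SD, n = 3). It lay 3.60 above the threshold, with a 95% interval from 3.06 to 4.14 (limma adjusted p = 0.000104). Probe set 1453957_PM_a_at had 7.20, 7.27 and 8.26 (1.32 above the threshold, adjusted p = 0.00721), and 1422611_PM_s_at had 7.27, 7.26 and 8.03 (1.27 above, adjusted p = 0.00414). Both lost the call at the tissue-restricted threshold (adjusted p = 0.643 and 0.702) and at the antigenomic one (0.676 and 0.744). The 3 called probe sets all carry the letters s or a. The remaining one, 1450687_PM_at, had 6.08, 5.90 and 7.77, above the threshold on replicate 3 alone, and was not called (0.34 above the threshold, adjusted p = 0.427). Without cross-hybridising probe sets, Igf2bp3 rested on 1450687_PM_at and lost its call (gene level, 0.43 above the threshold, adjusted p = 0.301). Hmga2 and Igf2bp1 kept theirs, which left 2 member genes called (49.5% of all genes). Of the 9 remaining member probe sets 5 were above background (44.2% of all such probe sets).

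**Figure D1:**
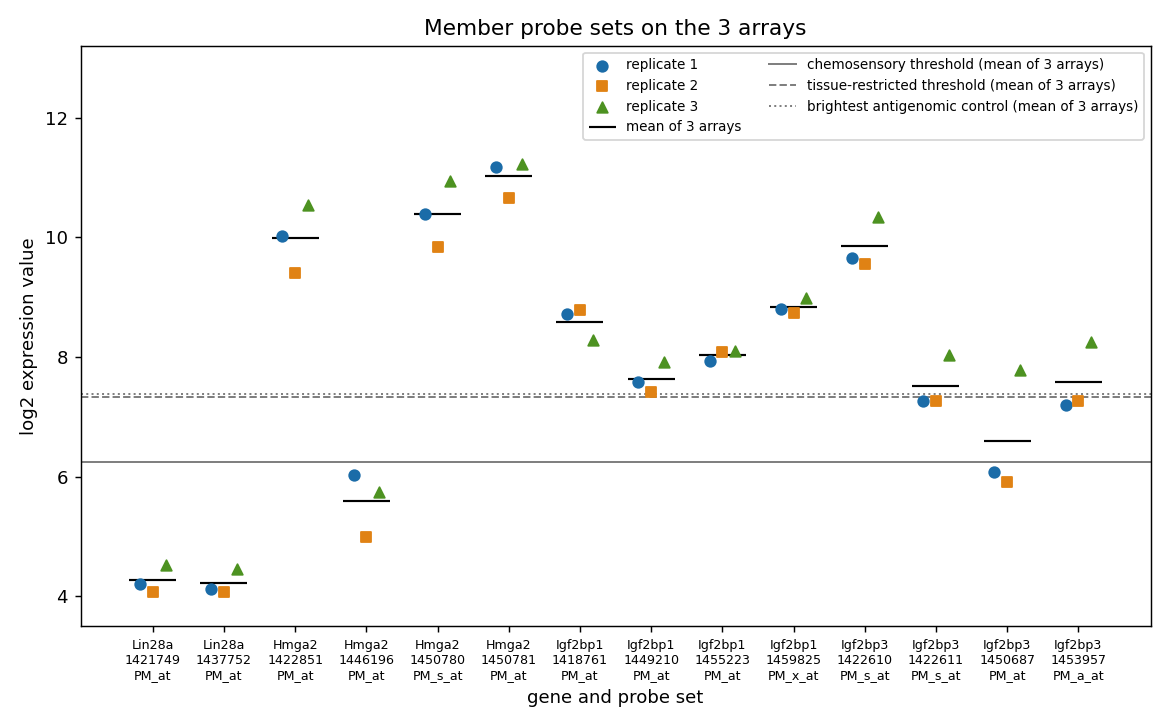
The log2 value (vertical axis) of each of the 14 member probe sets (horizontal axis) on replicates 1, 2 and 3, with the mean over the arrays as a black bar and 3 background thresholds as grey lines, each the mean over the arrays. The 2 Lin28a probe sets lie between 4.08 and 4.52, and 3 of the 4 Hmga2 probe sets lie above 9.39.

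The members differed in how they varied among the litters. Each litter was on 1 array, so these differences are described and not tested, and litter, batch and number of cells cannot be told apart. The median SD over the 14 probe sets was 0.37 on the log2 scale, against 0.27 over all 13529 probe sets above background. Without replicate 3 the members' median SD was 0.10, and that of all probe sets above background was 0.083. Without replicate 2 the pair was 0.27 and 0.30, and without replicate 1 it was 0.47 and 0.30. After median centring the pair was 0.27 and 0.24, and after quantile normalization 0.23 and 0.24. The members' larger SD therefore did not hold under every scaling or choice of arrays. Over all probe sets above background, replicate 3 was higher than the mean of the other arrays by a median of 0.29, which median centring brought to 0.01 and quantile normalization to -0.09.

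Igf2bp3 was highest on replicate 3 with all 4 probe sets, under the deposited values, median centring, quantile normalization and subtraction of the threshold alike. As deposited, replicate 3 exceeded the mean of the other arrays by 0.73, 0.77, 1.03 and 1.78. After quantile normalization the differences were 0.30, 0.40, 0.65 and 1.45. A lower deposited difference on replicate 3 than that of 1422610_PM_s_at was shown by 78.4% of the probe sets above background. The share was 80.1% for 1422611_PM_s_at, 89.5% for 1453957_PM_a_at and 99.02% for 1450687_PM_at, which was not called. All but 1453957_PM_a_at share a source sequence in the annotation. For 1450687_PM_at the SD of 1.03 was larger than that of 99% of the probe sets above background. Its mean lay above the threshold only through replicate 3, since without that array the difference was -0.27.

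Hmga2 was lowest on replicate 2 with all 4 probe sets under each of these 4 scalings. As deposited, replicate 2 lay below the mean of the other arrays, with differences of -0.55, -0.84, -0.89 and -0.89. After quantile normalization they were -0.34, -0.63, -0.68 and -0.76. In both series the last difference was that of 1446196_PM_at, which lay below the threshold on every array and was not called. The others share 1 source sequence in the annotation. Of the probe sets above background, 1.38% had a lower deposited difference on replicate 2 than 1422851_PM_at, and 10.4% a lower one than 1450781_PM_at. The probe sets of 1 gene on 1 array share the same RNA, so they are not independent readings.

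Igf2bp1 had no common order of arrays. Replicate 3 was the highest array for 3 of its probe sets as deposited and for none after quantile normalization, so the scaling turned that order. Its most stable probe set was 1455223_PM_at, with an SD of 0.09. Lin28a was highest on replicate 3 with both probe sets under the 4 scalings, but these values lie under the threshold.

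**Figure D2:**
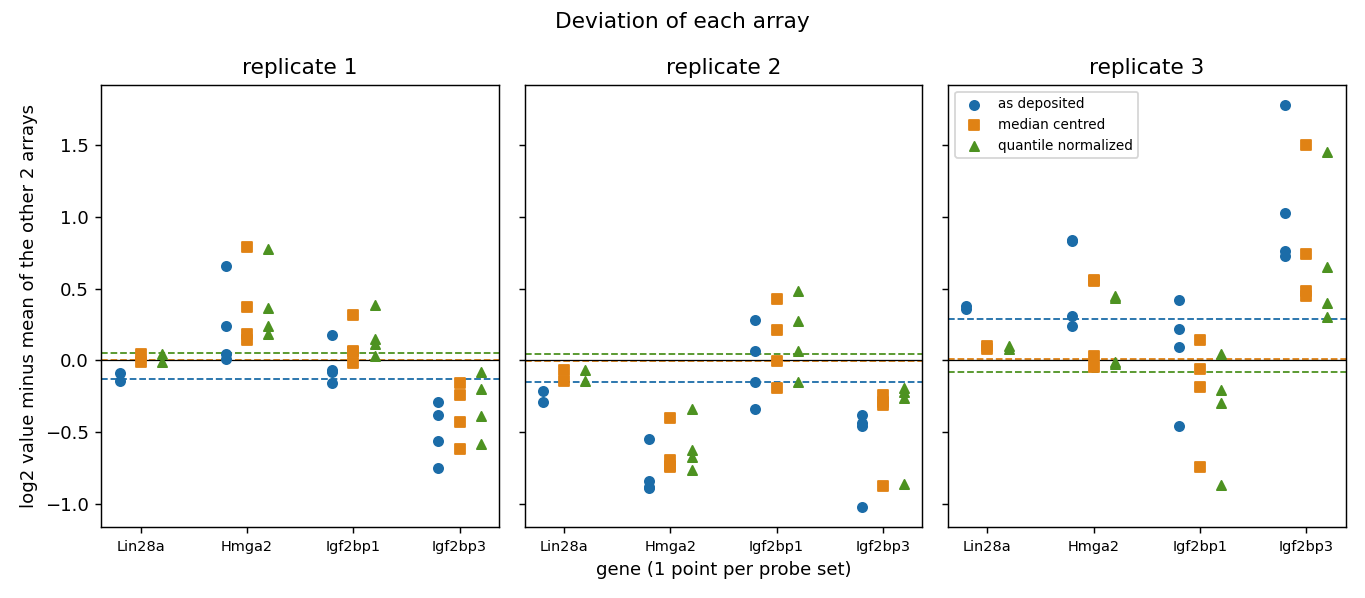
The log2 value of a probe set on an array minus its mean on the other arrays (vertical axis) for replicates 1, 2 and 3 (panels), with 1 point per probe set and colours for the deposited, median centred and quantile normalized values. Dashed lines give the median of all probe sets above background. All Igf2bp3 points are above 0 on replicate 3, and all Hmga2 points are below 0 on replicate 2.

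Genes with the most similar profile were found by Euclidean distance between values centred on each gene's own mean, over 3 arrays. For Hmga2 these were Gm12992 (distance 0.02), Dmac2 (0.03) and Alg5 (0.04). For Igf2bp3 they were Cep164, Slc29a3 and Hnrnpll, and for Igf2bp1 they were Prelid1, Lias and Ezh1. With only 3 arrays such likeness is common. Of 8971 other genes above background, 440 lay within a distance of 0.25 of Hmga2, 2025 of Igf2bp3 and 3201 of Igf2bp1.

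Most measured genes of let-7 processing were above background. Of 21 genes of let-7 biogenesis and Lin28 cofactors, 18 were above background, with a median of 2.48 above the threshold. The share was 85.7%, against 52.5% of all genes, whose median was 0.63 above it. Dicer1, the nuclease that cuts the precursor hairpin, reached 9.79, 9.71 and 10.16 on the log2 scale (limma adjusted p = 2.40e-05). The nuclear processing genes Drosha (7.81 ± 0.24, SD, n = 3) and Dgcr8 (8.42 ± 0.16) were above background, as was the export receptor gene Xpo5 (7.46 ± 0.32). Drosha and Xpo5 lost their calls at the tissue-restricted threshold (adjusted p = 0.0783 and 0.689), and Xpo5 also at the antigenomic one (0.806). Dis3l2, the nuclease gene for tailed let-7 precursors, named after its values were seen, lost its call at both (adjusted p = 0.168 and 0.117). The list's count was 15 at the tissue-restricted threshold and 16 at the antigenomic one.

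The genes of both transferases that LIN28 is known to recruit were above background, while Lin28a was not and Lin28b was not analysed. Tut4 had 7.85, 7.87 and 8.45 on replicates 1, 2 and 3, and Tut7 had 8.66, 8.94 and 8.95 (limma adjusted p = 0.000449 and 5.88e-05). These transferases also act in general messenger RNA turnover. The 3 genes not above background were Trim71, Ago4 and Prkra. Trim71, a let-7 target that is an early embryonic RNA-binding ubiquitin ligase gene, had 6.51, 7.23 and 5.71 (adjusted p = 0.412), and without replicate 3 it passed (adjusted p = 0.0105). Ago4, an Argonaute gene, had 5.74, 5.64 and 6.92, and Prkra, a Dicer partner gene, 6.02, 5.97 and 7.48.

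Genes known as let-7 targets were above background in 15 of 17 measured cases (88.2%), against 52.5% of all genes. The median target lay 2.53 above the threshold. At the tissue-restricted threshold 11 of the 17 passed, against 31.3% of all genes. Among them were the oncogene Myc (8.78 ± 0.20, SD, n = 3), the Ras gene Nras (11.08 ± 0.15), the cyclin genes Ccnd1 (11.45 ± 0.19) and Ccnd2 (12.48 ± 0.04) and the kinase gene Cdk6 (9.47 ± 0.13). Mycn stood at 8.38 ± 0.27 and lost its call without cross-hybridising probe sets (adjusted p = 0.741) and with the mean of its probe sets (0.219). The death receptor gene Fas (5.03 ± 0.55) and the activin-type receptor gene Acvr1c (4.85 ± 0.07) were not above background. A level says nothing of repression by let-7, which was not measured.

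Other HMG box and HMGN chromatin genes were above background in 10 of 11 measured cases (90.9%), against 52.5% of all genes. Their median lay 2.33 above the threshold. Hmgb1 (10.66 ± 0.41, SD, n = 3), Hmgb2 (10.64 ± 0.07) and Hmgb3 (10.70 ± 0.32) encode DNA-bending HMG box proteins. The nucleosome-binding genes Hmgn1 (12.40 ± 0.11) and Hmgn3 (7.95 ± 0.31) and the HMG box gene Hmg20b (8.58 ± 0.11) were called too, and the nucleosome-binding gene Hmgn5 (4.97 ± 0.09) was not. Without cross-hybridising probe sets 6 of these genes were still tested and 5 were above background, against 49.5% of all genes.

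Of 8 genes known as partners or targets of HMGA2, 6 were above background (75%, median 1.84 above the threshold), against 52.5% of all genes. The cyclin genes Ccna2 (10.79 ± 0.25, SD, n = 3) and Ccnb2 (8.32 ± 0.11), the cell cycle transcription factor gene E2f1 (7.85 ± 0.01) and the AP-1 gene Junb (8.57 ± 0.35) were called. So were Twist1 (9.80 ± 0.17) and Snai1 (7.20 ± 0.27), transcription factor genes of epithelial to mesenchymal transition, of which Snai1 fell below the tissue-restricted threshold (difference -0.13). Cdkn2a, the Ink4a and Arf locus that HMGA2 is known to restrain in fetal stem cells, had 6.26, 6.08 and 5.22 and was not above background. Neither was the retinoblastoma gene Rb1, with 6.20, 6.34 and 7.20 (limma adjusted p = 0.207).

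Transcripts bound by IGF2BP proteins were above background in 10 of 11 measured cases (90.9%, median 2.76 above the threshold). At the tissue-restricted threshold 10 passed as well. Of all genes, 52.5% were above background, and 31.3% at the tissue-restricted threshold. Igf2, the fetal growth factor gene after which the family is named, had 12.73, 12.58 and 12.58 on the log2 scale. Actb stood at 13.35 ± 0.09 (SD, n = 3), the hyaluronan receptor gene Cd44 at 8.99 ± 0.54 and the growth cone gene Gap43 at 8.63 ± 0.38. Btrc, the ubiquitin ligase adaptor gene, stood at 9.59 ± 0.17. Btrc lost its call without cross-hybridising probe sets (limma adjusted p = 0.145) and with the mean of its probe sets (0.399). The atypical MAP kinase gene Mapk4 (5.96 ± 0.34) was not above background. Many of these transcripts are abundant in most cells.

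The m6A writers, erasers and other readers were above background in 15 of 17 measured cases (88.2%), against 52.5% of all genes. The list's median lay 2.84 above the threshold. The methyltransferase genes Mettl3 (10.14 ± 0.06, SD, n = 3) and Mettl14 (8.31 ± 0.30) and the complex genes Wtap (10.92 ± 0.60), Virma (8.77 ± 0.60), Rbm15 (8.24 ± 0.59) and Rbm15b (9.41 ± 0.06) were called. The complex gene Cbll1 had 6.35, 6.49 and 7.57 and was not (limma adjusted p = 0.104), but passed without replicate 1 (0.0208) and without replicate 2 (0.0417). The reader and helicase gene Ythdc2 stood at 4.53 ± 0.21.

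Relatives of LIN28 by its RNA-binding domains were above background in all 5 measured cases, against 52.5% of all genes. Their median lay 4.32 above the threshold. Ybx1 (11.75 ± 0.05, SD, n = 3) and Ybx3 (10.57 ± 0.65) encode cold shock domain proteins, and Cnbp (11.32 ± 0.26) a zinc knuckle protein. The cold shock genes Ybx2 (6.89 ± 0.32) and Csdc2 (6.61 ± 0.15) were close to the threshold. The count was 3 at the tissue-restricted threshold (31.3% of all genes) and also 3 without replicate 2.

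Other genes of fetal growth were above background in 9 of 11 measured cases (81.8%), against 52.5% of all genes. The list's median lay 2.48 above the threshold. The imprinted genes Dlk1 (12.44 ± 0.07, SD, n = 3), Peg3 (10.63 ± 0.18) and Plagl1 (12.03 ± 0.12) and the trophoblast glycoprotein gene Tpbg (10.12 ± 0.23) were called. Plag1 (7.02 ± 0.07), a transcription factor gene of fetal growth, was called and fell below the tissue-restricted threshold (difference -0.31). With the mean of its probe sets Plag1 lost its call (limma adjusted p = 0.288), and in that setting the list's count was 7. The alpha-fetoprotein gene Afp had 6.52, 6.49 and 6.88 and was not called (limma adjusted p = 0.0513). Its call changed in 7 alternatives, among them the fit without replicate 3 (adjusted p = 0.0174). Sall4, a zinc finger gene of early embryonic and germ cells, had 5.16, 5.16 and 6.20.

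Pluripotency genes, with which LIN28A is used for reprogramming, were above background in 2 of 9 measured cases (22.2%), against 52.5% of all genes. Their median lay below the threshold (difference -0.72). The core factor genes Pou5f1 (5.53 ± 0.20, SD, n = 3), Nanog (4.09 ± 0.18) and Sox2 (4.05 ± 0.39) were not above background. Klf4, also a gene of epithelial cells, stood at 10.06 ± 0.10. Utf1, a chromatin gene of undifferentiated embryonic cells, stood at 7.25 ± 0.10 and fell below the tissue-restricted threshold (difference -0.08).

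**Figure D3:**
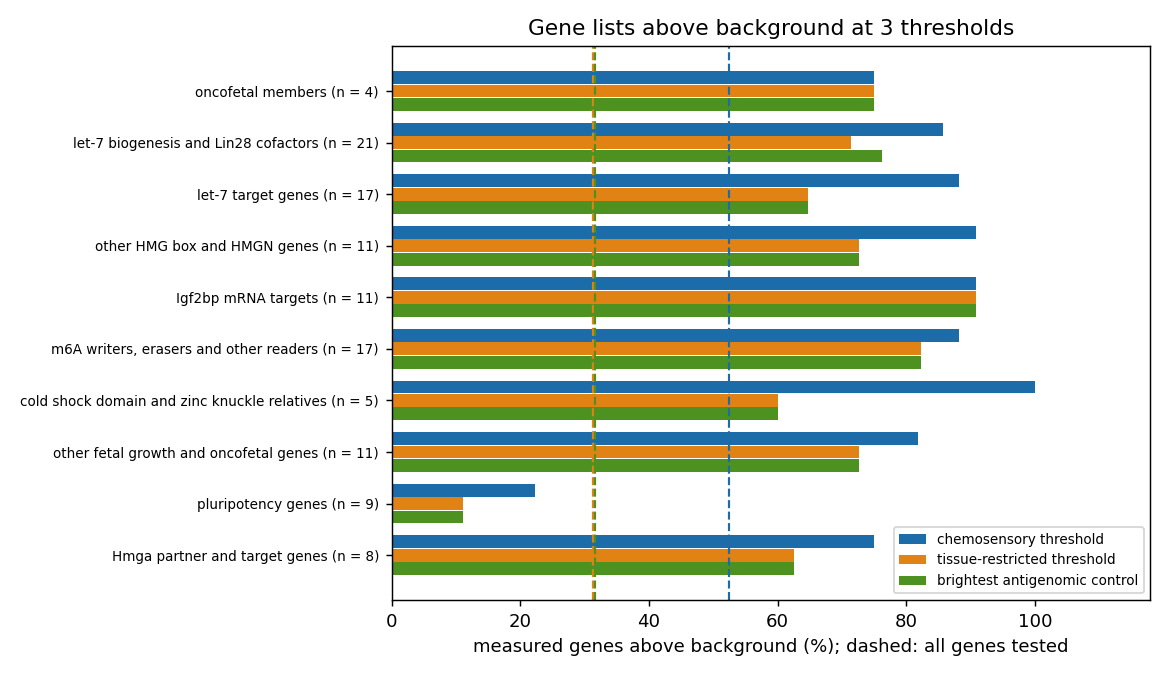
The percentage of measured genes above background (horizontal axis) in each gene list (vertical axis, with its number of measured genes) at 3 thresholds, with dashed lines for all genes tested. Pluripotency genes reach 22.2% at the chemosensory threshold, where all genes reach 52.5%.

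The sorted cells carried the markers of their label. All 7 genes of the sort and of basal epithelium were above background, among them Lgr5 (10.27 ± 0.44, SD, n = 3), Itga6 (10.37 ± 0.40), Krt5 (12.15 ± 0.16) and Krt14 (11.38 ± 0.25), and so were all 6 luminal and general epithelial genes. Of 12 mesenchyme markers, 11 were above background, such as Col1a1 (12.99 ± 0.15) and Col3a1 (12.76 ± 0.13), and Pdgfra (4.89 ± 0.55) was not. Hmga2 and Igf2bp genes are known from embryonic mesenchyme as well as epithelium, so the cells that gave their signal cannot be told from these pools, nor can fewer cells be told from less RNA per cell. The summed log2 level of the mesenchyme list ran from 121.2 on replicate 3 to 123.3 on replicate 1, and that of the general epithelial list from 54.1 on replicate 1 to 58.0 on replicate 3. These are sums of deposited values, on which replicate 3 was higher by a median of 0.29 over all probe sets above background. The sums of the basal and sort genes (72.3 to 75.6) and the m6A genes (149.2 to 160.5) were also highest on replicate 3. So was that of the germ cell genes (24.7 to 28.5). After median centring the mesenchyme sums were 124.4, 123.5 and 119.0 on replicates 1, 2 and 3, and the general epithelial sums 54.7, 56.7 and 56.9. The basal and sort sums were then 73.0, 74.8 and 74.3, highest on replicate 2. The centred m6A (157.4) and germ cell (27.6) sums stayed highest on replicate 3. The part of these lists in the members' values was not tested. Endothelial and leukocyte lists each had 2 of 8 genes above background, melanocyte and Schwann cells 2 of 7, erythroid cells 2 of 5, suprabasal epidermis 3 of 8, skeletal muscle 1 of 7 and germ cells 1 of 5. For each of these marker lists, the share over all genes tested was 52.5%. Several of these small counts rested on 1 array or on the threshold. Suprabasal epidermis had 5 genes above background without replicate 3 and 6 with the 90th percentile, skeletal muscle had 2 under each of these, and erythroid cells had 1 without replicate 1 or without replicate 2. At both the tissue-restricted and the antigenomic threshold the endothelial, erythroid, muscle and germ cell counts were 0. The leukocyte, suprabasal, and melanocyte and Schwann cell counts were 1 at both. Of the 12 mesenchyme genes 11 were still called at both, and of the basal and sort genes all 7. The luminal and general epithelial count fell from 6 to 4 at both. Of all genes, 31.3% and 31.6% passed these thresholds. With the 99th percentile the endothelial and erythroid counts were 1 and the muscle count 0. Without cross-hybridising probe sets the endothelial count was 0 of 5 still tested and the melanocyte and Schwann cell count 1. In that setting 49.5% of all genes were above background. Beside these limma counts of 0, an unadjusted p under 0.05 was reached by 1 erythroid gene at each of the stricter thresholds and by 1 muscle gene with the 99th percentile, and by 0 genes in the other cases.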

How the data were processed

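Per the submitters' processing notes, the authors used RMA and the affy package, and the deposited table holds log2 expression values per probe set. Versions, settings and genome build are not given in the sources used here, nor whether the 3 arrays were normalized together. Per the labels' protocols, cDNA was amplified for 25 cycles. Of 45141 probe sets, 104 were controls, 551 had several gene symbols and 15588 no listed gene, and these were left out of the tests. Gene names came from the platform annotation, with list symbols matched through RefSeq gene identifiers.

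After subtraction of each array's threshold, limma 3.58.1 (R 4.3.3) tested means with an intercept model and trended moderated variances, one-sided. The p-values measure the spread of 3 arrays and take the threshold as exact. The fit was also run on simulated independent normal values without an array effect. That run cannot check the threshold or the shift of replicate 3. Tables used Python 3.11.15, pandas 2.3.3 and scipy 1.17.1, and figures matplotlib 3.10.9. In each list the first 6 genes above background and the first 3 others could be named. Members and lists were chosen with earlier results of these data known. Alternatives changed the threshold, normalization, probe sets, variance model, filter and arrays. The number of arrays limits the precision.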

Additional observations from a re-analysis of the deposited data

Results flagged for a closer look

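The annotation pairs 2 further probe sets with Igf2bp3 and the overlapping D030074P21Rik together, so they lie outside the member rule. Both gave a signal above the threshold on all 3 arrays. Probe set 1433731_PM_at read 8.05, 8.20 and 8.80 on replicates 1 to 3 (log2), on average 2.10 above the threshold. Probe set 1433732_PM_x_at had 8.06, 8.23 and 8.78, on average 2.11 above it. Both were highest on replicate 3, as were the 4 probe sets of Igf2bp3 alone, and which of the paired genes gave the signal was not tested.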

How the results depend on the processing

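No paired analysis was possible because there was only 1 group. The count of member genes above background was 3 in 13 of the 14 alternatives and 2 without cross-hybridising probe sets, and that of member probe sets was 10 in 10 of 13. It was 7 at the tissue-restricted and antigenomic thresholds and 5 without cross-hybridising probe sets, where 9 were tested. The tissue-restricted and antigenomic thresholds lowered the count over all probe sets from 13529 to 7395 and 7610, and over all genes from 8972 to 5354 and 5399. They lowered the cold shock and zinc knuckle count from 5 to 3 and 3, and the pluripotency count from 2 to 1 and 1. The cold shock count was also 3 with the 99th percentile, 2 of 2 still tested without cross-hybridising probe sets and 3 to 5 with 1 array left out. Without cross-hybridising probe sets the HMG count was 5 of 6 still tested. The members' median SD ranged from 0.10 to 0.47 with 1 array left out, and that of all probe sets above background from 0.083 to 0.30. Of the pathway lists' genes called at the main threshold, 15 lost the call at the tissue-restricted and 14 at the antigenomic threshold, and 8 had means below each. Those of the 8 named by the rule had differences of -0.73 and -0.77 (Csdc2), -0.31 and -0.36 (Plag1), -0.13 and -0.18 (Snai1), -0.082 and -0.13 (Utf1) and -0.44 and -0.49 (Ybx2). Csdc2 was also below the 99th percentile (-0.0044). Both thresholds lay above the chemosensory one on every array, and the cause was not tested. Signal over background limits what can be said of weak probe sets, as RMA compresses their differences.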
